A study of Mus musculus with 8 samples.

Results

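The genes described are 10 members of a tandem family of F-box genes expressed in the mouse oocyte, Fbxw13, Fbxw15, Fbxw16, Fbxw18, Fbxw19, Fbxw20, Fbxw21, Fbxw22, Fbxw24 and Fbxw28. They were chosen by name, and all 10 had a row among the 37310 gene rows of the count tables. Levels were measured by RNA-seq of polyA RNA in 8 pools of C57BL/6N mouse embryos at the 2-cell stage. The first 4 pools were Gadd45a/Gadd45b double knockout (DKO) embryos from DKO females, and the other 4 were wild-type (WT) embryos from WT females. Each pool held 23 to 35 embryos of a single litter. Females were 3 to 4 weeks old, superovulated and naturally mated, and embryos were taken 20 h after the plug was seen. Mother and embryo shared a genotype, so loss of the maternal and of the embryonic product cannot be told apart. The DKO mice came from interbreeding separate Gadd45a and Gadd45b knockout lines; which parts of these genes the alleles lack was not used here.

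F-box proteins are the exchangeable substrate receptors of SCF ubiquitin ligases. The F-box motif binds SKP1, which joins the receptor to the cullin CUL1 and the RING protein RBX1, and the WD40 repeats of the FBXW class hold the substrate that is to be ubiquitinated and usually degraded. In the growing oocyte transcripts are stored for use during maturation and the first divisions, and after fertilization most of this maternal RNA is cleared as the embryonic genome becomes active around the 2-cell stage. Fbxw15 protein has been linked to turnover of the histone acetyltransferase HBO1 in mouse cells, and Fbxw24 to meiotic prophase in the mouse ovary.

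All 10 members lie on chromosome 9 in the same orientation. GENCODE mouse release 21 (build GRCm38) places 15 Fbxw genes side by side there, in the order Fbxw21, Fbxw13, Fbxw20, Fbxw14, Fbxw28, Fbxw22, Fbxw16, Fbxw19, Fbxw23, Fbxw15, Fbxw24, Fbxw25, Fbxw18, Fbxw26 and Fbxw27, all on the minus strand. The counts were made on an older build (NCBIM37, mm9), so no gene coordinates are given for them. Of the 15 genes, 11 matched a row of the count tables, the 10 members and Fbxw26. Each member is annotated with a coding transcript of 10 exons and 464 to 469 codons, the stop codon not counted.

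The members are close copies of each other, which matters for how reads can be assigned. The first coding bases, from the start codon on, are shown from the GENCODE transcripts of GRCm38 (minus strand of chromosome 9), with capitals for bases left unmatched in a global alignment with the commonest base at each position. The commonest base was taken over the 9 genes without extra bases in this stretch, which gave no tie:
Fbxw13: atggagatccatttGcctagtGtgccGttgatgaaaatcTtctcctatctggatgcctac
Fbxw15: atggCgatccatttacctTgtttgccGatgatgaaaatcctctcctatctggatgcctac
Fbxw16: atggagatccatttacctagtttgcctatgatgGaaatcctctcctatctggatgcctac
Fbxw18: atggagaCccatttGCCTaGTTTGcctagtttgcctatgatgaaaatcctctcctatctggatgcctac
Fbxw19: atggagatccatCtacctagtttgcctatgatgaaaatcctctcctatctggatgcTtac
Fbxw20: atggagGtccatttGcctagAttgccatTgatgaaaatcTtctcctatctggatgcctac
Fbxw21: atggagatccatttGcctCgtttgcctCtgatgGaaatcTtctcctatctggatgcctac
Fbxw22: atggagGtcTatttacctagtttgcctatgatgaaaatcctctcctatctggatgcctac
Fbxw24: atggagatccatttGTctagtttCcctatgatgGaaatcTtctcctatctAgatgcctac
Fbxw28: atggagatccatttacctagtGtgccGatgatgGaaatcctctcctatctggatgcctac
Over the first 60 bases the alignment distance from the commonest sequence was 1 in Fbxw16 and 6 in Fbxw20 and Fbxw24. Fbxw18 carries extra bases in this stretch and is shown over 69 bases, at an alignment distance of 10. Over the whole coding sequence, identity between pairs of members was 79.5% to 91.8%, with a median of 83.5% over 45 pairs. The most similar pair was Fbxw22 and Fbxw28 and the least similar Fbxw24 and Fbxw28. Only the members were compared, so Fbxw14, Fbxw23, Fbxw25, Fbxw26 and Fbxw27 could not come out as a closest relative. Among the members, the closest to 8 of the 10 was the next Fbxw gene along the chromosome. These pairs were Fbxw13 with Fbxw21 (87.0%), Fbxw28 with Fbxw22, Fbxw16 with Fbxw19 (88.6%) and Fbxw15 with Fbxw24 (85.3%).

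**Figure D1:**
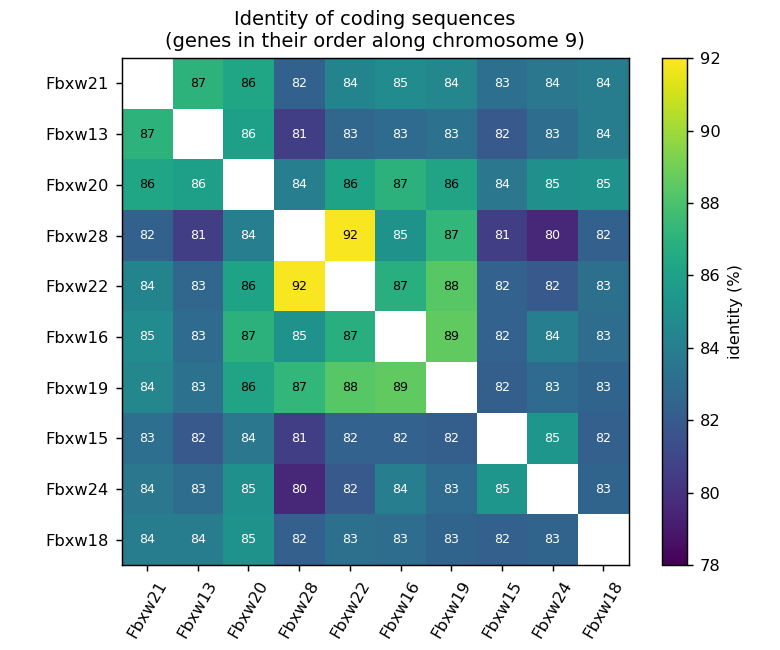
Identity (%) between the coding sequences of the 10 members, which are given in their order along chromosome 9 on both axes; the colour and the number in each cell give the identity. The brightest cell is the pair Fbxw22 and Fbxw28 at 91.8%, and the bright cells beside the diagonal are neighbouring genes. Other bright cells lie away from the diagonal, such as Fbxw19 and Fbxw22 (88.3%). Some cells beside it are dim, such as Fbxw15 and Fbxw19 (82.3%), which have Fbxw23, not shown here, between them on the chromosome.

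Reads of 85 bases nevertheless distinguish most of these transcripts. The different windows of 85 bases in each member's annotated transcripts came to 19916 over the 10 members. A window shared by members was counted for each of them. Of these windows, 92.8% occurred in no transcript of another gene on either strand. The share was 100% for Fbxw24, which had no shared window, and 91.6% to 99.8% for Fbxw13, Fbxw15, Fbxw16, Fbxw18, Fbxw19, Fbxw20, Fbxw21 and Fbxw22. Fbxw28 was the exception at 52.9%, with 956 of its 2031 windows also found in transcripts of Fbxw14, a neighbouring gene that had no matched row. Counts of Fbxw28 are therefore uncertain, since the sources used here do not say how reads that match several places were counted. Only exact matches in annotated transcripts were searched.

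The promoters are copies as well. RefSeq windows of 250 bases before to 50 bases after the start (GRCm38.p6) were at hand for Fbxw15, Fbxw16, Fbxw18, Fbxw19, Fbxw20, Fbxw21, Fbxw24 and Fbxw28, with 2 starts for Fbxw21. Between windows of different members identity was 59.7% to 92.3%, with a median of 81.7% over 35 pairs, where a shift of the annotated start lowers the value. The windows of Fbxw24, the member with the highest level, and of Fbxw21, among the lowest, are shown with capitals for the bases that do not match the other window in a global alignment:
Fbxw24 (GRCm38.p6, chr9:109626010-109626309, minus strand): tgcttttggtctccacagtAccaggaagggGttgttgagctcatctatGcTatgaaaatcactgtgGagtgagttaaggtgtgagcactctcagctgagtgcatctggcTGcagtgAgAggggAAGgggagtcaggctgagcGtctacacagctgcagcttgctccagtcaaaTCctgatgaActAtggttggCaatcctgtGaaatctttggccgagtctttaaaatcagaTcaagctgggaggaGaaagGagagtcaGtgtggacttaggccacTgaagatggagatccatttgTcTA
Fbxw21 (GRCm38.p6, chr9:109161973-109162272, minus strand): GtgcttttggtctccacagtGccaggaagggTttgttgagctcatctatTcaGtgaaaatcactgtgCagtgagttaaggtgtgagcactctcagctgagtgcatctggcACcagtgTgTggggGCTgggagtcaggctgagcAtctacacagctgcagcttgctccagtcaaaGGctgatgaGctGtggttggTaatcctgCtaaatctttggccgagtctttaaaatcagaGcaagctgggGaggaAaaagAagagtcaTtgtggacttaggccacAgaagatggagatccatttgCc
These 2 windows were 89.7% identical at an alignment distance of 31 bases. The longest stretches found in all 9 member windows were 2 runs of 12 bases, aaatctttggcc and gacttaggccac, picked after the windows were compared. On either strand the run aaatctttggcc occurred in 13 of 32851 RefSeq promoter windows (0.0396%), with Fbxw14, Fbxw26, Gm40505 and Olfr829 as the other genes. The run gacttaggccac occurred in 12 (0.0365%), with Fbxw14, Fbxw25 and Fbxw26 as the other genes. Of 6 short motifs searched on both strands, the following 5 occurred in 0 of the 9 member windows: the TATA box TATAAA, held by 13.6% of all windows, the homeobox motif TAATTG (8.00% of windows), its relative TAATTA (5.29% of windows), the E-box CACGTG (7.15% of windows) and the E-box CAGGTG (20.2% of windows). The CCAAT box, searched as CCAAT, occurred in the Fbxw16 window and in 37.4% of all windows. Absence of these letters says nothing about the factors that bind them.

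The libraries held 21329736 to 23919114 counts, and 18433 to 20427 genes were detected in each. Gadd45b, the targeted gene on chromosome 10, averaged 0.276 ± 0.244 CPM in DKO pools and 45.3 ± 11.8 CPM in WT pools, and Gadd45a, on chromosome 6, 9.40 ± 1.69 CPM in DKO pools and 20.0 ± 2.95 CPM in WT pools (SD, n = 4 each; CPM, a gene's counts relative to the TMM-scaled library total). DKO replicate 1 stood apart, with a sample quality weight of 0.358 where the other libraries had 0.779 to 2.11. Summed CPM of 19 oocyte marker genes was 12930 to 17950 in DKO pools and 11180 to 13710 in WT pools, with 15 of the 18 tested at a positive log2 fold change, a median of 0.17 and 0 called; the part of this in the family's values was not tested. Of 18 cumulus and granulosa cell markers 14 had counts, and Foxl2, Amh, Inhba and Ptx3 had 0 counts in every pool. The list summed to 143 to 185 CPM in DKO pools and 150 to 218 CPM in WT pools (0 of 7 tested members called). Its highest tested members were Nr5a2 (mean 85.8 CPM in DKO pools, 105 in WT pools), Serpine2 (40.4 and 36.2) and Amhr2 (24.3 and 25.1). The other tested members were lower: Tnfaip6 (8.75 and 7.94), Cyp19a1 (2.42 and 1.77), Star (0.843 and 0.557) and Has2 (0.520 and 0.461). Whether these transcripts came from cumulus cells was not tested. Summed CPM of 12 markers of the 2-cell embryo was 2225 to 2742 in DKO pools and 2351 to 2687 in WT pools. Of these 0 were called, but in 2, Tdpoz4 and Usp17lb, every DKO pool was below every WT pool (382 of 14970 genes tested). In 0 of them was every DKO pool above every WT pool (417 of 14970 genes tested). In pools of whole embryos, fewer cells or embryos carrying a transcript and less of it per cell cannot be told apart.

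The family was abundant in embryos of both genotypes. Together the 10 members took 0.123% to 0.168% of all counts of a library. Their summed level was 1517, 1306, 1638 and 1281 CPM in DKO replicates 1 to 4, against 1376, 1468, 1605 and 1317 CPM in WT replicates 1 to 4. The DKO values enclosed the WT values on both sides, and the means were 1435 ± 172 CPM in DKO pools and 1442 ± 126 CPM in WT pools (SD, n = 4 each), a ratio of 0.996. This sum does not change when reads pass from a member to another member. It can change with reads shared with genes outside the 10, such as Fbxw14 (956 windows of Fbxw28) and Gm42494 (131 windows of Fbxw16).

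Fbxw24 was the leading transcript of the family. It had 561, 533, 628 and 496 CPM in DKO replicates 1 to 4, against 548, 604, 635 and 563 CPM in WT replicates 1 to 4. The genotypes overlapped, with the lowest pool a DKO pool and the highest a WT pool. It made up 38.7% ± 1.59 of the family's counts in DKO pools and 40.8% ± 1.47 in WT pools (SD, n = 4 each), and its level in CPM was at the 98.3rd percentile of the 14970 genes tested. No other member came near it: Fbxw16 made up 12.6% in DKO pools and 13.3% in WT pools, Fbxw28 12.1% in DKO pools and 11.3% in WT pools, and Fbxw19 11.6% in DKO pools and 11.0% in WT pools. Fbxw13 was the lowest at 0.967% in DKO pools and 0.912% in WT pools. All 10 members passed the filter on low counts, and all 10 were above the median CPM of the genes tested.

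Levels of different genes were compared per length, as CPM per kb of merged exons. Fbxw24 stood at 373 ± 37.4 CPM per kb in DKO pools and 395 ± 26.6 CPM per kb in WT pools (SD, n = 4 each), at the 99.3rd percentile of 14415 tested genes with a length. Next came Fbxw16, at 100.4 ± 12.7 CPM per kb in DKO pools and 107 ± 15.4 CPM per kb in WT pools. Fbxw13 was last, at 9.13 ± 0.857 CPM per kb in DKO pools and 8.61 ± 0.915 CPM per kb in WT pools, so the highest and lowest members differed 43.3-fold over the 8 pools. From high to low the order was Fbxw24, Fbxw16, Fbxw28, Fbxw15, Fbxw19, Fbxw22, Fbxw18, Fbxw20, Fbxw21 and Fbxw13. The ranges over 8 pools did not overlap between Fbxw24 and Fbxw16, between Fbxw15 and Fbxw19, between Fbxw18 and Fbxw20, or between Fbxw21 and Fbxw13. The other neighbours overlapped: Fbxw28 was above Fbxw15 in 4 of the 8 pools and Fbxw22 above Fbxw18 in 5.

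Part of this order depended on the length used. The merged exons of Fbxw19 span 3487 bases over its 2 annotated transcripts, whereas its coding transcript has 1483 bases. With the coding transcript's length, an alternative added after the data were seen, Fbxw19 was at 109 CPM per kb instead of 46.6, and it stood above Fbxw15 in all 8 pools instead of below it. Fbxw20 and Fbxw21 were at 33.5 and 27.7 CPM per kb with that length, and the ranges of Fbxw18 and Fbxw20 then overlapped. Fbxw24 remained first and Fbxw13 last under either length.

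**Figure D2:**
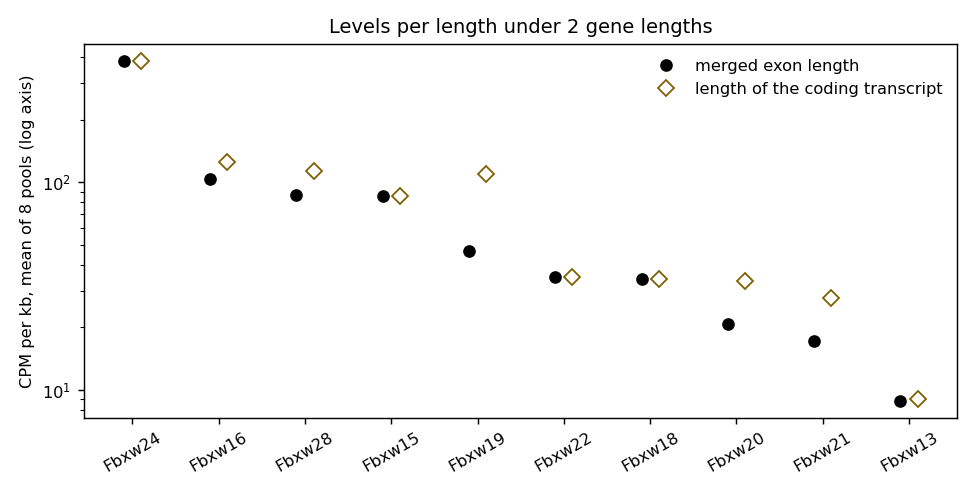
Mean level over the 8 pools in CPM per kb (log axis) for each member, with the merged exon length (filled circles) and with the length of the coding transcript (open diamonds). Fbxw24 is highest and Fbxw13 lowest under both lengths, and the largest shift is that of Fbxw19, from 46.6 to 109 CPM per kb.

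The comparison of DKO with WT embryos asked whether these transcripts differ when Gadd45a and Gadd45b are lost. By edgeR's quasi-likelihood test 0 of the 10 members passed a Benjamini-Hochberg adjusted p of 0.05 over all genes tested, where 0.0267% of 14970 genes did. At an unadjusted p under 0.05 there were also 0 members, against 10.2% of the genes tested, and DESeq2 called 0 members, against 0.345% of genes. At that unadjusted p 5.79% of genes were higher in DKO pools. Adjusted p of the members by edgeR lay between 0.558 and 0.955. The targeted gene Gadd45a was itself not called by edgeR (log2 fold change −1.09, edgeR adjusted p 0.303), while its DESeq2 adjusted p was 0.00066. A gene that was not called may therefore still differ. The pools of the genotypes overlapped for every member, whereas they did not overlap for 5.34% of all genes, 2.79% with DKO higher. Log2 fold changes (DKO minus WT) were positive for 7 members and negative for 3, with 51.2% of all genes positive, and the median was 0.08 over the members and 0.01 over all genes tested.

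The replicates also gave an interval for each difference. The 95% intervals of all 10 fold changes included 1 and ended within 2-fold in either direction, as did the intervals of 57.9% of the genes tested. Over the members, the lowest bound was a DKO level of 0.743 times WT (Fbxw15) and the highest 1.71 times WT (Fbxw22). These intervals cover the spread between pools, each of them a litter, as the edgeR fit estimates it.

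**Figure D3:**
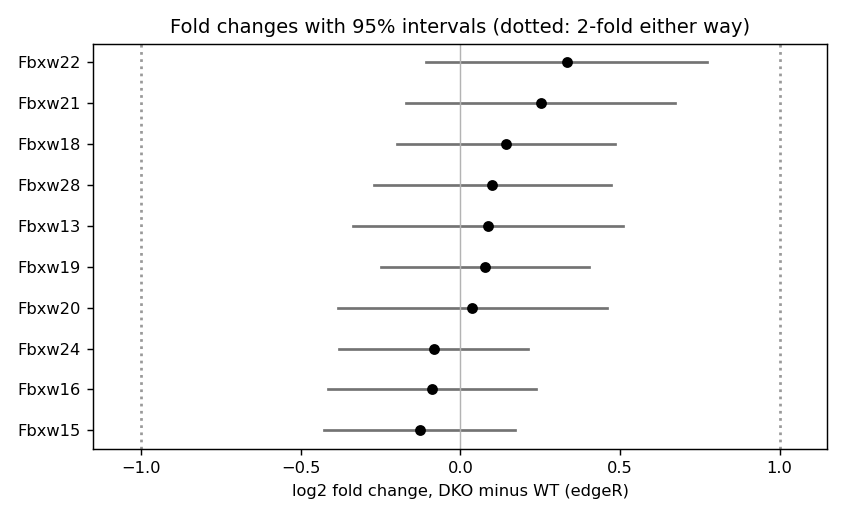
Log2 fold change (DKO minus WT, edgeR) of each member as a point with its 95% interval as a line; dotted lines mark a 2-fold change either way. All 10 intervals cross 0, the highest bound belongs to Fbxw22 and the lowest to Fbxw15.

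The 4 other abundant members had fold changes near 1. Fbxw16 had 162, 170, 214 and 178 CPM in DKO replicates 1 to 4, against 172, 208, 223 and 166 CPM in WT replicates 1 to 4. The highest pool was WT replicate 3 and the lowest DKO replicate 1, with a log2 fold change of −0.09 (SE 0.15, adjusted p 0.838 in edgeR). Fbxw28 had 203, 144, 207 and 146 CPM in DKO replicates 1 to 4, against 144, 169, 200 and 140 CPM in WT replicates 1 to 4. DKO replicates 1 and 3 lay just above every WT pool, and DKO replicates 2 and 4 lay within the WT range (log2 fold change 0.10, SE 0.17, adjusted p 0.839 in edgeR). Fbxw19 had 186, 149, 190 and 143 CPM in DKO replicates 1 to 4, against 163, 156, 178 and 135 CPM in WT replicates 1 to 4. Here too DKO replicates 1 and 3 were the highest pools, and the log2 fold change was 0.08 (SE 0.15, adjusted p 0.860 in edgeR). Fbxw15 had 112, 117, 141 and 119 CPM in DKO replicates 1 to 4, against 138, 122, 147 and 128 CPM in WT replicates 1 to 4. It had the lowest fold change of the family, a log2 value of −0.13 (SE 0.14, adjusted p 0.740 in edgeR), with 3 DKO pools below every WT pool and DKO replicate 3 within the WT range. Fbxw24 itself had a log2 fold change of −0.08 (SE 0.14, adjusted p 0.833 in edgeR).

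The largest positive values belonged to Fbxw22 and Fbxw21 and rested on few pools. Fbxw22 had 93.8, 51.9, 84.0 and 55.7 CPM in DKO replicates 1 to 4, against 57.2, 64.0, 61.1 and 44.3 CPM in WT replicates 1 to 4. DKO replicates 1 and 3 exceeded every WT pool, while DKO replicates 2 and 4 lay within the WT range. Its means were 71.3 ± 20.7 CPM in DKO pools and 56.6 ± 8.72 CPM in WT pools (SD, n = 4 each), for a log2 fold change of 0.33 (SE 0.21, adjusted p 0.558 in edgeR). Fbxw21 had 64.0, 38.0, 46.1 and 34.1 CPM in DKO replicates 1 to 4, against 35.7, 38.4, 40.4 and 38.5 CPM in WT replicates 1 to 4. The WT pools lay close together and the DKO pools spread to both sides of them, at a coefficient of variation of 29.2% in DKO pools and 5.14% in WT pools. The log2 fold change of Fbxw21 was 0.25 (SE 0.20, adjusted p 0.632 in edgeR). Without DKO replicate 1, the library that stood apart, the log2 fold changes were 0.17 for Fbxw22 (edgeR adjusted p = 0.938) and 0.03 for Fbxw21 (edgeR adjusted p = 0.994). Without DKO replicate 2 they rose to 0.46 for Fbxw22 and 0.33 for Fbxw21, and without DKO replicate 4 to 0.44 and 0.37.

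The 3 remaining members had low to moderate levels. Fbxw18 had 61.4, 44.3, 58.9 and 52.8 CPM in DKO replicates 1 to 4, against 47.1, 45.6, 49.3 and 54.8 CPM in WT replicates 1 to 4. DKO pools held both the highest and the lowest value (log2 fold change 0.14, SE 0.16, adjusted p 0.744 in edgeR). Fbxw20 had 59.2, 45.3, 55.7 and 44.6 CPM in DKO replicates 1 to 4, against 58.2, 47.2, 60.6 and 33.6 CPM in WT replicates 1 to 4. WT pools held both extremes here, and the log2 fold change was 0.04 (SE 0.20, adjusted p 0.955 in edgeR), with a sign that turned when a single library was left out (−0.05 without DKO replicate 1 and −0.12 without WT replicate 4). Fbxw13 had 14.5, 14.3, 14.5 and 11.9 CPM in DKO replicates 1 to 4, against 13.1, 14.3, 11.1 and 13.6 CPM in WT replicates 1 to 4. The lowest pool was WT replicate 3 (log2 fold change 0.09, SE 0.20, adjusted p 0.887 in edgeR), and even this member had at least 248 counts in every library.

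Such small values moved when a single library was left out, also for members whose sign was kept. The log2 fold change of Fbxw19 was 0.005 without WT replicate 4 and 0.15 without DKO replicate 4. That of Fbxw13 was 0.009 without WT replicate 3 and 0.15 without DKO replicate 4, and that of Fbxw28 was 0.014 without DKO replicate 3 and 0.20 without WT replicate 3. Among the 3 members with negative values, Fbxw16 ranged from −0.18 without DKO replicate 3 to −0.02 without WT replicate 3. No member was called in any of these fits.

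**Figure D4:**
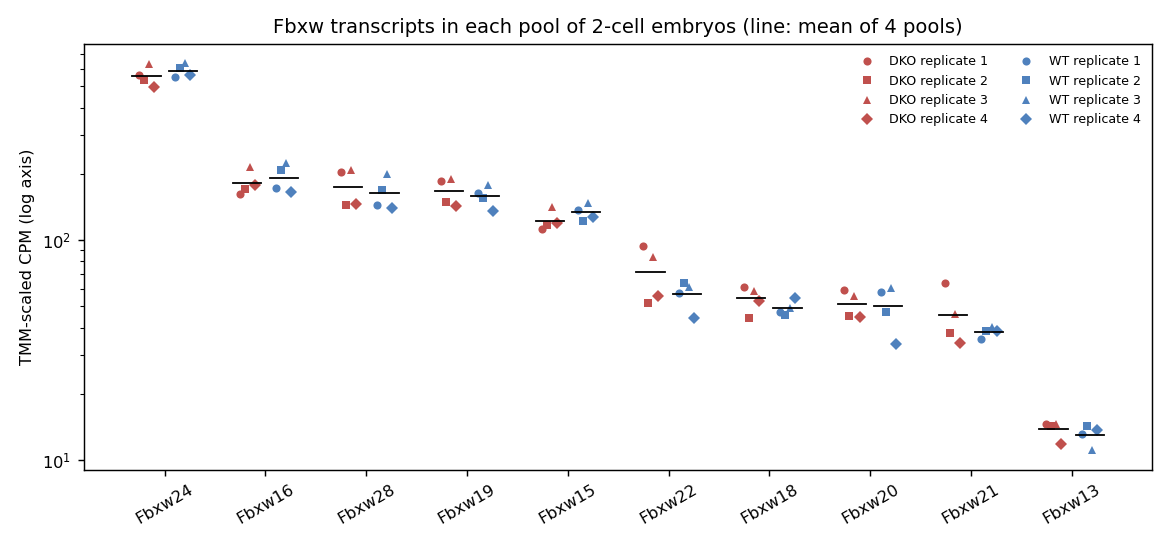
Level of each member in every pool as TMM-scaled CPM (log axis), ordered by mean, with the 4 DKO pools to the left of the 4 WT pools and a line at the mean of each genotype. The genotypes overlap for all 10 members, from Fbxw24 at 496 to 635 CPM down to Fbxw13 at 11.1 to 14.5 CPM.

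Much of the variation was between pools of the same genotype. In DKO replicate 3 all 10 members were above their own mean over the 8 pools (log2 scale), and in DKO replicate 1, 7 of 10. In DKO replicates 2 and 4 a single member was above its mean, Fbxw13 and Fbxw18 in this order. In WT replicates 1, 2, 3 and 4 the numbers were 3, 5, 6 and 3. The mean deviation of the members was 0.19, −0.13, 0.21 and −0.14 log2 units in DKO replicates 1 to 4, against −0.05, −0.005, 0.09 and −0.17 log2 units in WT replicates 1 to 4. The members did not move as a block in every pool: in DKO replicate 1, Fbxw21 and Fbxw22 stood 0.64 and 0.59 log2 units above their means, whereas Fbxw16 and Fbxw15 were at −0.20 and −0.18. In WT replicate 4, Fbxw20 and Fbxw22 were at −0.56 and −0.49 while Fbxw18 was at 0.09. The biological coefficient of variation in the edgeR fit was 0.149 for Fbxw24 to 0.213 for Fbxw22. Among tested genes within 0.5 log2 units of the same level, 7.64% had a smaller value than Fbxw24 and 78.8% a smaller value than Fbxw22.

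**Figure D5:**
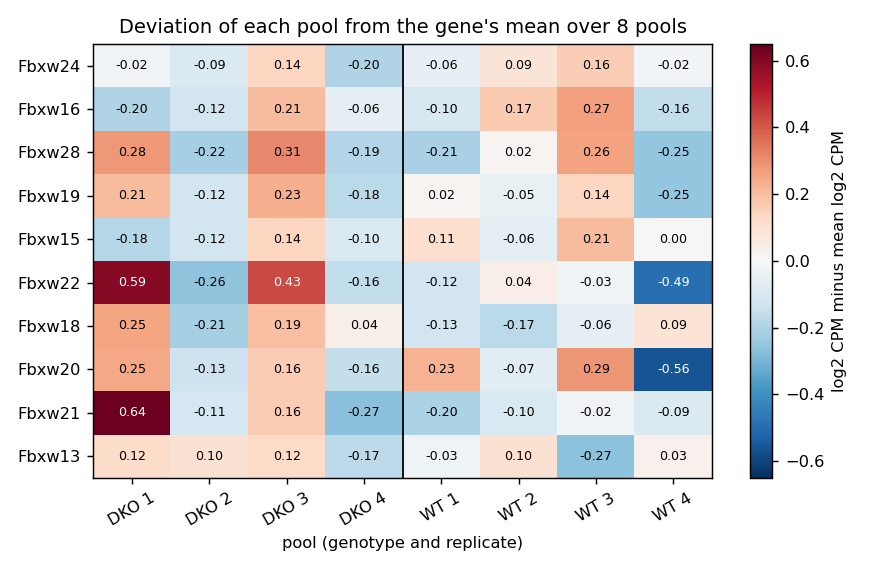
Deviation of each pool (columns, DKO left of WT) from the gene's own mean over the 8 pools in log2 CPM, for the 10 members from highest to lowest level; red is above and blue below the mean. DKO replicate 3 is above the mean for every member, the highest cell is Fbxw21 in DKO replicate 1 (0.64), and the lowest is Fbxw20 in WT replicate 4 (−0.56).

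Genes outside the 10 members were searched for a profile over the 8 pools like the mean profile of the members. Among 11323 such genes whose mean log2 CPM was 1 or more, the smallest root mean square difference of centred log2 CPM was that of Phb, which encodes the mitochondrial protein prohibitin, at 0.0469 log2 units. Lrrc28 (0.0619), Cfap97 (0.0625), Cenpw, a centromere protein gene (0.0702), and Zfp280d, a zinc finger gene (0.0765), followed, and the median over all these genes was 0.350. Single members, which enter that mean profile, differed from it by 0.0462 for Fbxw19, less than Phb, up to 0.208 for Fbxw22. The mean profile itself ran only from −0.17 log2 units in WT replicate 4 to 0.21 in DKO replicate 3. A gene that hardly varied between pools would therefore also differ little from it.

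Fbxw genes that are no members gave the following. Fbxw26, the cluster gene with a row of its own, had 13.6, 9.44, 11.1 and 12.9 CPM in DKO replicates 1 to 4, against 16.0, 8.00, 7.55 and 10.9 CPM in WT replicates 1 to 4, with full overlap (log2 fold change 0.15, SE 0.26, adjusted p 0.839 in edgeR). Fbxw17, which lies on chromosome 13, had 33 counts over the DKO pools and 51 over the WT pools and was not tested. Of the Fbxw genes elsewhere in the genome 9 of 11 were matched. Fbxw10 had 0 counts in every pool, and among the 8 tested 0 were called and the median log2 fold change was 0.08. Their level was far below that of the chromosome 9 family, with a sum of 173 to 205 CPM in DKO pools and 193 to 218 CPM in WT pools. The smallest p was that of Btrc, the β-TrCP receptor of SCF ligases, at 45.4 ± 10.2 CPM in DKO pools and 63.5 ± 15.8 CPM in WT pools (SD, n = 4 each, log2 fold change −0.48, SE 0.21, adjusted p 0.476 in edgeR). Fbxw5 was at 2.46 CPM in DKO pools and 1.42 CPM in WT pools, and Fbxw9 at 10.8 CPM in DKO pools and 13.9 CPM in WT pools.

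The rest of the ligase was expressed and also had no called member. The list took in the SCF core, its ubiquitin-conjugating enzymes, the neddylation enzymes and the COP9 signalosome. Among its 31 tested genes 0 were called, 16 had a positive and 15 a negative log2 fold change, and the median was 0.01. The COP9 signalosome subunits tested, Cops2, Cops3, Cops4, Cops5, Cops6, Cops7a, Cops7b, Cops8 and Gps1, were all negative, from −0.73 (Cops5) to −0.19 (Gps1). The other genes of the list had values of both signs. A shift of the subunits as a group was not tested. The smallest p was that of Cops5, the subunit of the COP9 signalosome that removes NEDD8 from cullins, with 29.7, 55.0, 40.1 and 37.2 CPM in DKO replicates 1 to 4, against 56.3, 67.2, 59.7 and 85.0 CPM in WT replicates 1 to 4. All 4 DKO pools were below every WT pool, at a log2 fold change of −0.73 (SE 0.20, adjusted p 0.469 in edgeR). Cops8, another subunit, had a log2 fold change of −0.39 (edgeR adjusted p = 0.471), and Cdc34, an E2 enzyme that works with SCF, 0.36 (edgeR adjusted p = 0.475). Of the 31 genes, 3 (Cops5, Cops8 and Nedd8) had every DKO pool below every WT pool, as had 382 of 14970 genes tested. In 1 of them, Cdc34, every DKO pool was above every WT pool, as in 417 of 14970 genes tested. Among 53 tested genes of other F-box proteins, 0 were called, with 32 positive, 21 negative and a median of 0.06. The 3 with the smallest p were Fbxo48, at 1.64 ± 0.207 CPM in DKO pools and 4.53 ± 2.15 CPM in WT pools, Fbxl17, at 91.8 ± 24.8 CPM in DKO pools and 59.2 ± 7.77 CPM in WT pools, and Fbxo2, a receptor of glycoproteins, at 0.920 ± 0.170 CPM in DKO pools and 0.200 ± 0.129 CPM in WT pools (SD, n = 4 each, edgeR adjusted p = 0.469 for each).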

How the data were processed

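RNA of 8 pools of 2-cell embryos, 4 DKO and 4 WT, was measured by RNA-seq. Per the labels' protocols, cDNA was amplified in 11 PCR cycles and libraries in 11 more, and all libraries were read on a single flow cell as single reads of 85 cycles. Without molecular identifiers, PCR copies cannot be told from separate molecules. The authors deposited raw counts of reads for each gene and library. Per the submitters' processing notes, tools included STAR 2.5.2b, featureCounts 1.5.1 and DESeq2 1.18.1, on NCBIM37 and mm9. Strand and multi-mapping settings are not given in the sources used here. Symbols matched 32620 of 37310 rows; the 4690 others were kept.

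Counts were filtered (filterByExpr), TMM-scaled and tested with edgeR 4.0.16 in R 4.3.3 (robust quasi-likelihood test, Benjamini-Hochberg over 14970 genes, threshold 0.05). A prior count of 2 entered log2 CPM. Standard errors and 95% intervals come from the same fit; the coverage of the intervals was not tested. Alternatives were DESeq2 1.42.0, limma-voom (limma 3.58.1), other scalings and filters, a replicate block, embryo number as a covariate and libraries left out. Every pair of pools within a genotype differed beyond sampling noise (chi-square over its degrees of freedom at least 22.2). Lengths and transcripts came from GENCODE mouse release 21 on GRCm38, promoters from RefSeq on GRCm38.p6, both later than the build of the counts.

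Members and lists were chosen with earlier results of these data known. Genes named were the members, the matched Fbxw genes listed beside them, Gadd45a and Gadd45b, the called members of each other list or, with none called, the 3 with the smallest p, and the 5 genes of most similar profile. In the list of other cluster genes Fbxw14, Fbxw25 and Fbxw27 had no matched row. Sperm markers (10, 0 called, median log2 fold change 0.24 over 4 tested) and blood markers (5 matched, 0 called, median 0.21 over 3 tested) were checked as well. The blood marker Hba-a1 was uneven between pools, at 51.1 CPM in DKO replicate 4 and 44.0 CPM in WT replicate 1. In every other pool it was at 1.24 to 3.04 CPM, and the reason was not tested.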

Additional observations from a re-analysis of the deposited data

Results flagged for a closer look

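Among 22 groups of 4 pools checked for a value far from the others (10 members and the family sum in each genotype), 1 stood out: Fbxw13 in DKO replicate 4, at 11.9 CPM, lay below the other DKO pools at 14.3 to 14.5 CPM, a gap of 0.914 of the group's range. Chance marks about 1 in 20 such groups.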

How the results depend on the processing

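The count of members called was 0 under all 19 alternatives, and the smallest adjusted p of any member was 0.361, for Fbxw22 without DKO replicate 2. The median log2 fold change of the members (0.08) ranged from 0.01 to 0.15 over 18 alternatives, and the log2 ratio of the summed level (−0.006) from −0.08 to 0.05 over 10. Of 180 member values under the alternatives, 176 kept their sign. The 4 that changed it were Fbxw20 at −0.05 without DKO replicate 1, −0.00011 without DKO replicate 3 and −0.12 without WT replicate 4, and Fbxw28 at −0.033 without both libraries numbered 1; none was called, and the cause was not tested. Over all single libraries left out, Fbxw20 ranged from −0.12 to 0.14. Over all genes 4 were called, against 50 by DESeq2, 7 with no filter on low counts and 1 at a mean of at least 10 CPM; with each library left out in turn the count stayed at 4. With the replicate number as a block 4 genes and 0 members were called, with a median of 0.08 over the members. Same-numbered pools correlated at 0.0024 to 0.078 in their deviations, so the numbers were not taken as pairs, and 2 of 4 DKO pools correlated best with their own number. The ratio of the highest to the lowest member per length was 43.3 with merged exons and 42.5 with transcript lengths. Members had 248 to 14214 counts per library; counting error and the spread between pools were not separated.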
